A study of Mus musculus with 49 samples.

Results

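Oxidative phosphorylation genes were followed through hepatocyte dedifferentiation, aggregation and conversion to intestinal organoids. The members were the protein-coding rows of the deposited table of unique molecular identifier (UMI) counts whose symbols name subunits of the respiratory chain and the ATP synthase. Nuclear symbols of the Nduf, Sdh, Uqcr, Cyc1, Cox4 to Cox8 and Atp5 families and mitochondrial symbols starting with mt-Nd, mt-Co, mt-Cytb or mt-Atp were taken, and the pseudogene Cox6c2 was left out. The rule found 97 members among 46078 identifiers, of which 84 lie in the nuclear genome and 13 in the mitochondrial genome. Of the nuclear members, 36 belong to complex I, 4 to complex II, 9 to complex III, 18 to complex IV and 17 to complex V. Among the mitochondrial members, 7 belong to complex I, 1 to complex III, 3 to complex IV and 2 to complex V. Ndufa4 is counted with complex I by its symbol, although its product is a subunit of complex IV. Cox7b2 and Cox8c had no count in any library, and Cox4i2, Cox6a2 and Cox8b had 5, 99 and 2 counts over all libraries together. Uqcrhl was not a row of the table.

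The series held 49 libraries of 16 conditions from wild-type C57BL/6J mice. Hepatocytes were isolated by collagenase digestion from livers of 10-week-old mice. They were taken freshly isolated (FH, 3 libraries) or from monolayers kept with EGF. Monolayers were sampled 3 h, 1 and 2 days, 4 days, and 1 and 2 weeks after plating, in 3 libraries per time, and further 1-week monolayers had received 0.3 µM verteporfin (2 libraries) or only DMSO (2 libraries). Verteporfin is an inhibitor of the interaction of Yap with its DNA-binding partners, and DMSO is its solvent. Passaged monolayers of dedifferentiated hepatocytes (dediHeps, 5 libraries) were also gathered into dediHep aggregates in low-attachment wells (3), or embedded in Matrigel as dediHep-derived spherical organoids (SOs, 3), or as dediHep-derived budding organoids (BOs, 3) after forced expression of Cdx2, an intestinal transcription factor. CLiPs (3) are hepatocyte-derived progenitor cells made with 3 small molecules, Y-27632, A-83-01 and CHIR99021. The intestinal references were SOs from fetal intestinal progenitor cells (FIPC-derived SOs, 3) of E13.5 embryos and BOs from adult crypts of 10-week-old mice (ISC-derived BOs, 4). The labels call libraries of a group replicates without naming animals, so p-values measure only the spread between these samples. Some dediHep libraries share a culture code with an aggregate or SO library.

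Oxidative phosphorylation passes electrons from NADH and succinate through complexes I and II, ubiquinone, complex III, cytochrome c and complex IV to oxygen. Complexes I, III and IV pump protons across the inner mitochondrial membrane, and complex V, the ATP synthase, uses the gradient to make ATP. Every complex except complex II is built from subunits of both genomes. The adult hepatocyte is rich in mitochondria, where the chain serves fatty acid oxidation, urea synthesis and gluconeogenesis.

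Several mitochondrial members have near-identical copies in the nuclear genome, which bears on what a count of them means. A block of 7 copies lies on the minus strand of chromosome 1 (GRCm38), from Gm28439 at chr1:24611535-24612410, a copy of mt-Nd4, to Gm29216 at chr1:24615706-24616197, a copy of mt-Co1. Over the aligned bases, 6 copies matched their mitochondrial gene at every base and Gm29216 had 1 mismatch in 483. The last 30 aligned bases at the 3′ end, the end that the assay reads, are shown for 4 pairs to let the identity be seen. No base is in capitals because the sequence of the copy and that of the mitochondrial gene are the same in each pair.
mt-Co1 and Gm29216: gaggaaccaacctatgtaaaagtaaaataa
mt-Atp6 and Gm10925: ctagtaagcctatatctacatgataataca
mt-Nd3 and Gm28438: tgaacacaaaaaggattagaatgaacagag
mt-Nd4 and Gm28439: aaatcactaatcgcctactcctcagttagc
The first 3 alignments ended 0 to 3 bases from the 3′ end of the mitochondrial gene, and that of mt-Nd4 ended 502 bases before it. Counts of the copies of mt-Co1, mt-Atp6 and mt-Nd3 were close to those of the mitochondrial genes. Gm29216 had a median of 99.6% of the mt-Co1 count over the 49 libraries, Gm10925 had 101% of the mt-Atp6 count and Gm28438 had 106% of the mt-Nd3 count. Gm28439 did not follow closely, with a median of 16.2% of the mt-Nd4 count and a range of 5.41% to 46.7%. Gm10222 ran from 65.3% to 122% of the mt-Nd4l count. Reads of such a pair cannot be told apart, so the values of the mitochondrial members with a copy are uncertain as counts of single genes. Together with overlaps within the mitochondrial genome, 8 of the 13 mitochondrial members shared sequence with another row, and 5 did not.

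Counts of the mitochondrial members also came close to a ceiling. The highest count of any gene in any library equalled the number of different sequences that a UMI of 6 bases can take, a length inferred from this value because the sources used here do not give it. mt-Nd1, a core subunit of complex I at chrM:2751-3707, stood at 71.8% of this ceiling in its lowest library, 93.6% in the median library and 99.8% in the highest. Medians for the other abundant members were 92.2% for mt-Nd4, 81.2% for mt-Co1, 80.9% for mt-Co3 and 74.9% for mt-Cytb. Farthest below the ceiling were mt-Nd3, with a highest value of 62.4%, mt-Nd4l with 21.5%, mt-Nd6 with 15.8% and mt-Atp8 with 10.5%. Over the ceiling's 50% mark in at least 1 library were 10 mitochondrial members and 8 nuclear members, Uqcrq being the highest of the nuclear ones at 79.8%.

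**Figure D1:**
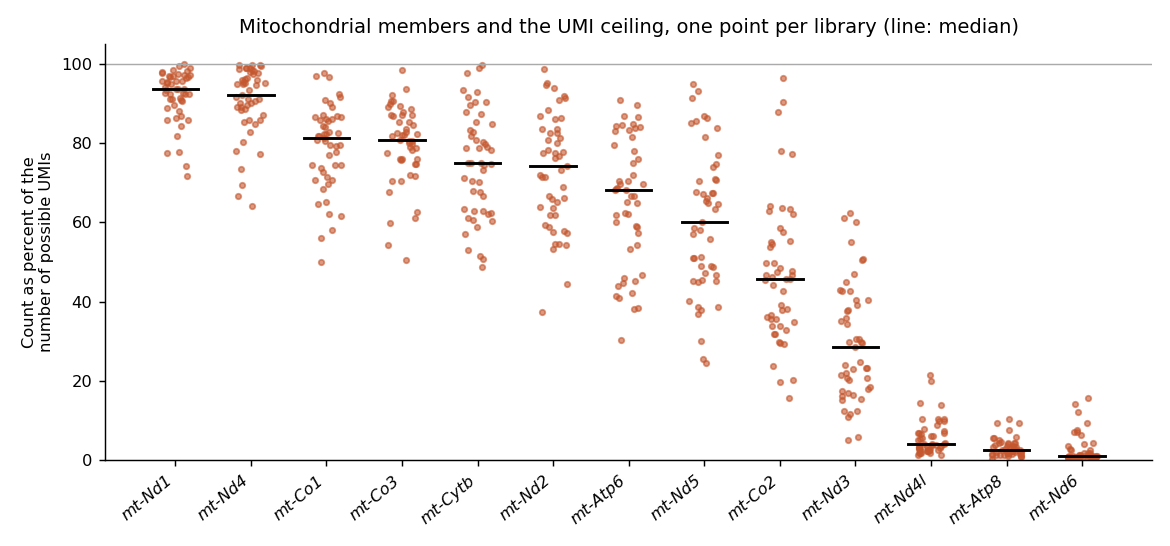
UMI count of each of the 13 mitochondrial members in each of 49 libraries, as a percent of the number of possible 6-base UMIs (vertical axis), with 1 point per library. mt-Nd1 and mt-Nd4 crowd the top, with medians of 93.6% and 92.2%, and mt-Nd4l, mt-Nd6 and mt-Atp8 have medians of 4.10%, 1.07% and 2.64%.

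As a result, the summed count of the 13 mitochondrial members ran only from 19920 to 38453 while library totals ran from 861047 to 3872936. FH libraries held 33994, 32170 and 36216 such counts in totals of 1250180, 1211070 and 1523804. At 1 day the libraries held 32853, 34241 and 31434 counts in totals of 2297042, 2099933 and 2161484. The raw counts of the 2 groups were alike and the totals were not, so mitochondrial CPM moved with the library total, and lower RNA and a deeper library cannot be told apart from the near-ceiling members. Beside some medians over the mitochondrial members and beside some single members a second value is given. It comes from counts corrected for UMIs drawn more than once, a correction that is itself imprecise close to the ceiling. Where no second value stands, the value is from deposited counts and keeps this limit.

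Library totals had a median of 1976760 counts, so that a floor of 3 counts was 0.775 to 3.48 CPM (counts per 1e6 counts of the library). FH replicate 1 stood apart from the other FH libraries in the members, and replicate 3 of the 2-week hepatocytes had the lowest total of the series (861047) and the highest mitochondrial share of its group. TMM factors, which scale libraries to a common middle of genes, were 0.633 to 0.735 in FH, 0.640 to 0.647 at 3 h and 0.875 to 1.25 in all other libraries. Against FH, all other conditions except 3 h therefore shift with the scaling. On library totals the median gene lay 0.61 to 1.05 (log2) above FH in these comparisons, against -0.04 to 0.17 with TMM, and member medians are given relative to the median of all genes tested. The 8 hepatocyte markers summed to 14310 to 16140 CPM in FH, 1581 to 3219 CPM at 1 week, 1225 to 1576 CPM at 2 weeks and 8014 to 12130 CPM in aggregates. The dediHep-derived SOs held 16.3 to 41.3 CPM of them and FIPC-derived SOs 222 to 478 CPM. Endothelial markers (5 genes) summed to 55.3 to 68.9 CPM in FH and 0 to 0.528 CPM in dediHeps, and macrophage markers (6 genes) to 38.1 to 138 CPM in FH and 1.53 to 12.3 CPM in dediHeps. Erythroid markers (4 genes, mostly Alas2) were at 60.8 to 135 CPM in FH and 0 to 0.528 CPM in dediHeps. Alas2 alone ran from 57.59 to 130.6 CPM in FH and from 104.8 to 130.9 CPM at 3 h. In FH the globins were low, with at most 4.954 CPM for Hba-a1, 1.651 CPM for Hbb-bs and 0.8257 CPM for Hbb-bt. The erythroid sum is thus mainly a value of Alas2, and whether it came from erythroid cells was not tested. The part of endothelial cells, macrophages and any erythroid cells in the member values was not tested.

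The nuclear members together took the largest share of counts in ISC-derived BOs and FH and the smallest in hepatocytes at 1 and 2 weeks. Their summed CPM, a share of the library total, was 18972, 24499 and 25075 in the FH libraries and 21475, 21280 and 20660 at 3 h. It was 18466, 16537 and 18677 at 1 day, 15349, 13483 and 13155 at 1 week and 14482, 15829 and 13980 at 2 weeks. It was 19176 and 17148 with verteporfin and 17822 and 16786 with DMSO. Every untreated library at 1 and 2 weeks lay below every FH library, while the 1-day libraries lay below FH replicates 2 and 3 and just below replicate 1. In these bulk samples fewer cells with many mitochondria and less RNA per cell cannot be told apart.

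Sums in dediHeps varied more than in any other cultured group. They were 11327, 15973, 17339, 17826 and 19900 CPM in replicates 1 to 5, so that replicate 5 reached the range of FH and replicate 1 was the lowest library of the series. Aggregates held 22280, 20549 and 20606 CPM, above every dediHep library. dediHep-derived SOs held 16908, 17231 and 16230 CPM, within the range of dediHeps. The dediHep-derived BOs held 21840, 20268 and 21462 CPM, all above the SOs. The ISC-derived BOs held 26208, 23862, 23718 and 24197 CPM, above all dediHep-derived BOs, and FIPC-derived SOs held 20991, 20048 and 20464 CPM, above all dediHep-derived SOs.

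Scaling with TMM moved FH upwards, and dediHep-derived SOs (13937 to 17093) then overlapped FIPC-derived SOs (16324 to 18323). On TMM-scaled CPM over all 49 libraries the nuclear sum was 34199 ± 7281 (SD, n = 3) in FH, 15399 ± 3307 (n = 5) in dediHeps and 22283 ± 1214 (n = 3) in aggregates. The lowest FH library, replicate 1, had 25798, close to the highest ISC-derived BO library with 25894. On this scale FH and dediHeps did not overlap.

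**Figure D2:**
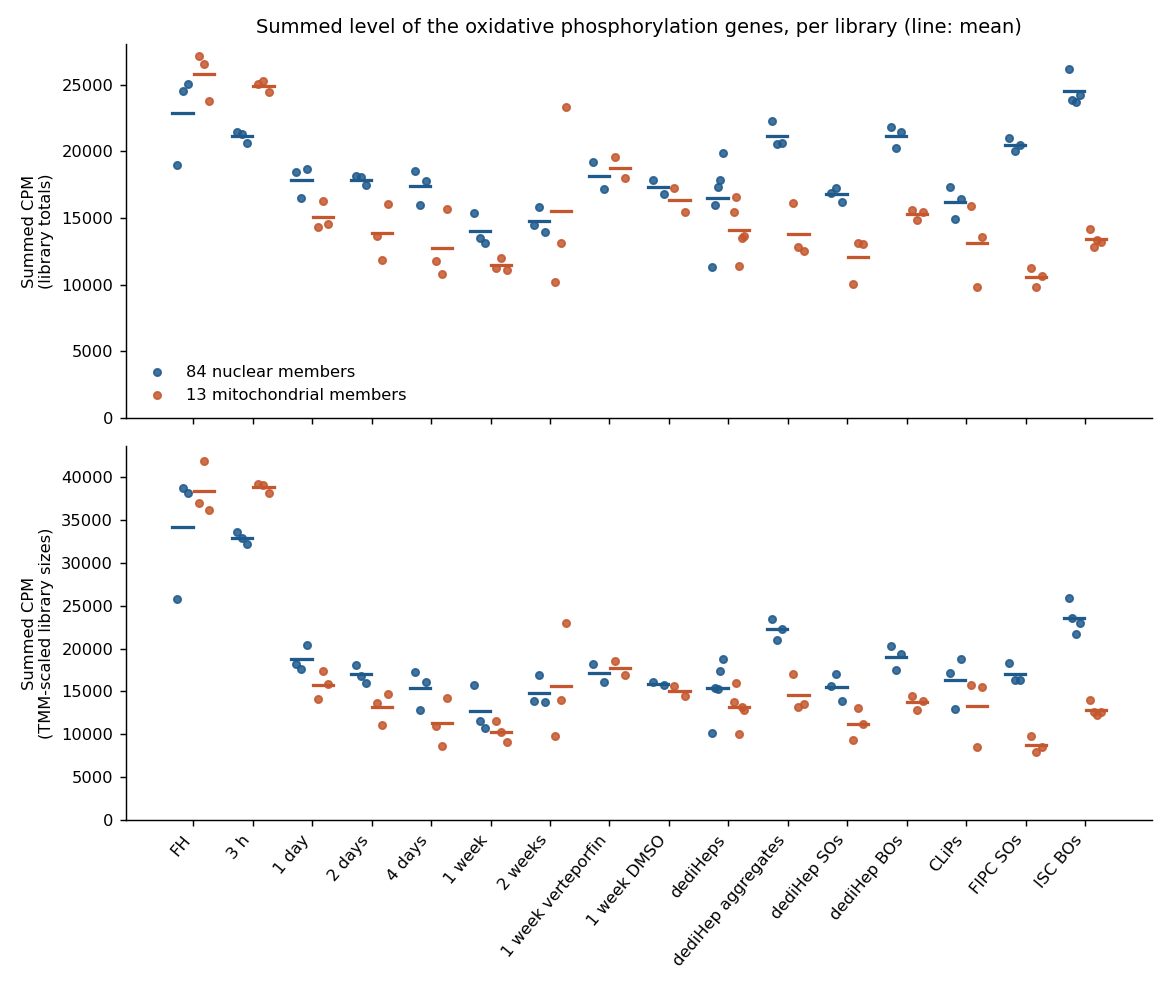
Summed CPM of the 84 nuclear (blue) and 13 mitochondrial (orange) members in each library of the 16 conditions, as plain CPM and as TMM-scaled CPM; points are libraries and lines are group means. In plain CPM the FH nuclear sums run from 18972 to 25075 and overlap dediHeps (11327 to 19900), and after TMM scaling they run from 25798 to 38691 and do not.

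The mitochondrial members together took 2.72%, 2.66% and 2.38% of counts in FH, more than the nuclear members (1.90%, 2.45% and 2.51%) in replicates 1 and 2. Their sum was 27191, 26563 and 23767 CPM in FH and 25068, 25288 and 24472 CPM at 3 h. At 1 day it was 14302, 16306 and 14543 CPM, below every FH library, and at 1 week it was 11226, 11998 and 11139 CPM. At 2 weeks the libraries held 10188, 13156 and 23302 CPM, and the last of them is the library of the lowest total. The ratio of the mitochondrial to the nuclear sum was 1.43, 1.08 and 0.948 in FH and 1.17 to 1.19 at 3 h. It was 0.775 to 0.986 at 1 day, 0.637 to 0.882 at 4 days, 0.607 to 0.723 in aggregates, 0.536 to 0.564 in ISC-derived BOs and 0.489 to 0.537 in FIPC-derived SOs. Both intestinal groups lay below every hepatocyte-derived library on this ratio of deposited counts. dediHeps spread from 0.657 to 1.36, replicate 1 being the highest. At 2 weeks the ratio was 0.703, 0.831 and 1.67, so the group mean of 1.07 rested on replicate 3.

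Correction for UMI collisions raised the ratio in every condition. It was then 2.37 on average in FH (2.15 to 2.72), 2.96 at 3 h (2.44 to 3.65), 2.01 at 1 day (1.66 to 2.71), 1.17 at 4 days (0.883 to 1.49) and 1.37 at 1 week (1.20 to 1.51). FH and 1 day overlapped on the corrected ratio, and FH did not overlap 4 days or 1 week. It was 1.67 in dediHeps (1.09 to 2.19), 1.08 in aggregates (1.02 to 1.15), 0.770 in FIPC-derived SOs (0.651 to 0.876) and 0.864 in ISC-derived BOs (0.788 to 0.941). On the corrected ratio ISC-derived BOs overlapped hepatocytes at 4 days, while FIPC-derived SOs stayed below every hepatocyte-derived library. On the 5 mitochondrial members that share no sequence with another row, the uncorrected ratio averaged 0.498 in FH and 0.353 at 1 week. Averages were 0.375 in dediHeps, 0.286 in aggregates, 0.209 in FIPC-derived SOs and 0.223 in ISC-derived BOs. FH libraries (0.404 to 0.610) overlapped dediHep libraries (0.261 to 0.575). Of these members mt-Nd1, mt-Nd2, mt-Nd5 and mt-Cytb had medians of 93.6%, 74.3%, 60.1% and 74.9% of the UMI ceiling, and mt-Nd6 had 1.07%. No test was made on sums or ratios.

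**Figure D3:**
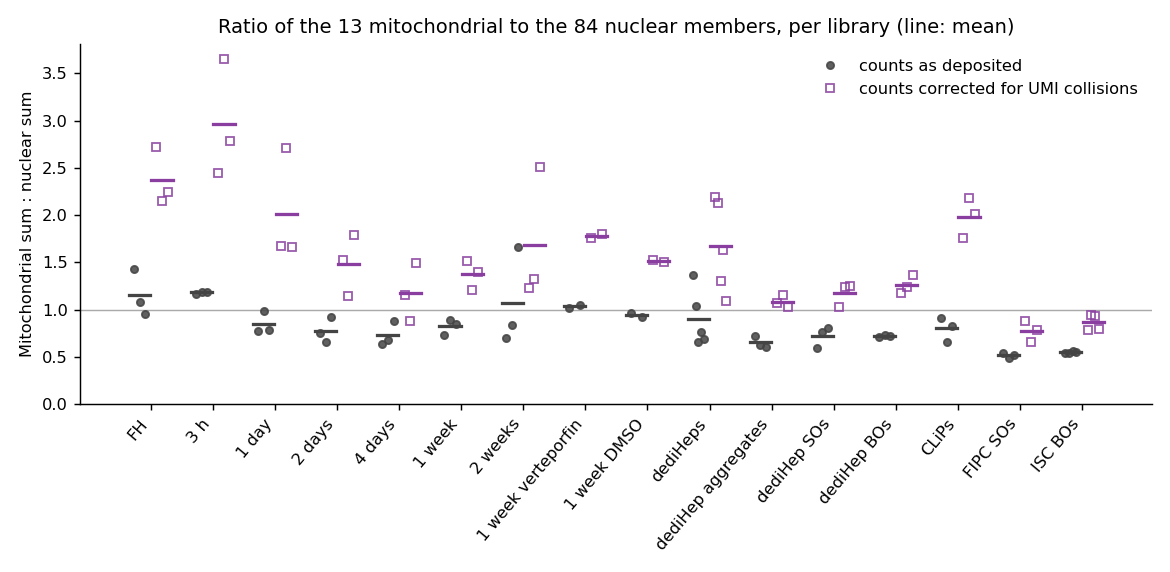
Ratio of the summed CPM of mitochondrial members to that of nuclear members in each library of the 16 conditions, from deposited counts and from counts corrected for UMI collisions. Deposited values run from 0.948 to 1.43 in FH and from 0.489 to 0.564 in the FIPC-derived SOs and ISC-derived BOs.

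At 3 h most members were close to FH, with a median log2 fold change of -0.08 over 78 nuclear members tested, beside -0.07 over all genes. A member is said to have passed where its false discovery rate (FDR) in the quasi-likelihood test of edgeR, adjusted over all genes tested, was under 0.1. By this rule 7 nuclear members rose and 3 fell, beside 7.58% of all genes higher and 10.9% lower, and no mitochondrial member passed, with 0 at an unadjusted p under 0.05 and 0 by DESeq2. Ndufa8, an accessory subunit of complex I, stood at 368, 257 and 254 TMM-scaled CPM in FH and 655, 688 and 472 at 3 h, without overlap, and rose by 1.05 ± 0.29 on the log2 scale (SE, FDR 0.0223). Atp5b, the catalytic beta subunit of ATP synthase, rose by 0.95 (FDR 0.0325) from 388, 539 and 393 to 795, 871 and 872. Cox7a2l, a factor that joins complexes III and IV, fell by 1.35 (FDR 0.0349). Its FH libraries, at 503, 1749 and 1489 scaled CPM, overlapped those at 3 h (656, 322 and 478). Uqcrc2, a core protein of complex III, rose by 0.86 (FDR 0.0479). Ndufa5 of complex I fell by 1.47 (FDR 0.0384) and Atp5j of ATP synthase by 1.10 (FDR 0.0742). Without FH replicate 1 the count of members passing was 24 in place of 10. It was 2 without FH replicate 2, 3 without FH replicate 3 and 3 or 5 without replicate 2 or 3 of the 3-h hepatocytes.

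Within 1 day the nuclear members fell broadly, with the smallest p in Ndufs3, Sdha and Atp5o. Of 78 nuclear members tested, 49 fell and 0 rose at 1 day, beside 39.9% of all genes in either direction, 22.2% lower and 17.7% higher. Their median log2 fold change was -0.94, 0.91 below that of all genes. On library totals 16 fell and 1 rose, beside 13.53% of all genes lower, and the median was -0.26, which lay 0.88 below that of all genes. Without FH replicate 1, 61 nuclear members fell. The fall was spread over the complexes, with 22 of 36 nuclear members of complex I, 3 of 4 of complex II, 4 of 9 of complex III, 7 of 12 of complex IV and 13 of 17 of complex V.

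Ndufs3, a core subunit of the arm of complex I that faces the matrix, shows the pattern most evenly. It stood at 190, 265 and 249 scaled CPM in FH and 255, 267 and 197 at 3 h, and then at 99.8, 64.6 and 66.7 at 1 day. The 1-day libraries lay below every FH library, a fall of 1.77 ± 0.28 on the log2 scale (FDR 4.45e-05), or 1.08 on library totals (FDR 0.00534). Atp5o, a subunit of the stalk of ATP synthase, fell by 1.64 ± 0.29 (FDR 0.000142). Its level was 44.1, 70.3 and 59.1 at 1 week and 59.7, 63.1 and 55.0 at 2 weeks. Sdha, the flavoprotein of succinate dehydrogenase, stood at 608, 1158 and 1130 scaled CPM in FH and 269, 383 and 271 at 1 day. Its groups did not overlap, and it fell by 1.81 ± 0.30 (FDR 7.06e-05, and by 1.13 on library totals). Ndufa4 lies at chr6:11900292-11907497 on the minus strand. It stood at 767, 499 and 304 scaled CPM in FH, 160, 136 and 127 at 1 day and 65.3, 43.1 and 68.7 at 2 weeks. Its log2 fold change was -2.06 ± 0.41 at 1 day (FDR 0.000436) and -3.29 ± 0.43 at 2 weeks (FDR 1.74e-06), and on library totals -1.41 and -2.60.

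Core and regulatory subunits did not all pass at 1 day. Atp5a1, the alpha subunit of ATP synthase, fell by 1.22 ± 0.24 (FDR 0.00047), and Atp5b by 1.13 (FDR 0.00363). Cox5a fell by 1.05 (FDR 0.00499) and Cox6c by 0.86 (FDR 0.0218), both of complex IV. Uqcrc1, a core protein of complex III, had -0.47 (FDR 0.393), Cyc1, its cytochrome c1, -0.49 (FDR 0.325), Cox4i1, a regulatory subunit of complex IV, -0.44 (FDR 0.338) and Ndufv1, which binds NADH, -0.79 (FDR 0.215). Cox4i1 was 0.27 and Uqcrc1 0.22 on library totals, the other sign. In FH, Cox4i1 stood at 164, 505 and 432 scaled CPM, Ndufv1 at 41.3, 130 and 195 and Sdhb, the iron-sulfur subunit of complex II, at 62.0, 158 and 173. Replicate 1 was the lowest FH library for each of these 3 members.

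From 2 days to 2 weeks more nuclear members passed, and the order of the groups by median was not strictly that of time. Counts of nuclear members that fell were 61 at 2 days, 68 at 4 days, 69 at 1 week and 65 at 2 weeks of 78 tested. Lower genes made up 23.1%, 23.5%, 23.5% and 27.6% of all genes at these times, and genes that passed in either direction 44.3%, 47.0%, 49.04% and 55.6%. Medians relative to all genes were -1.17, -1.32, -1.71 and -1.37. Library totals left these near -1.15, -1.31, -1.69 and -1.36, but the counts that fell dropped to 10, 15, 41 and 34, beside 13.8%, 13.7%, 14.3% and 17.6% of all genes. At 2 days the share of nuclear members that fell was thus near that of all genes on library totals, and at 4 days it was somewhat above it. Without FH replicate 1 the counts of nuclear members passing were 67, 69, 69 and 71. Without replicate 3 of the 2-week hepatocytes 54 passed at 2 weeks. At 1 week 32 of 36 nuclear members of complex I fell, 3 of 4 of complex II, 9 of 9 of complex III, 10 of 12 of complex IV and 15 of 17 of complex V.

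**Figure D4:**
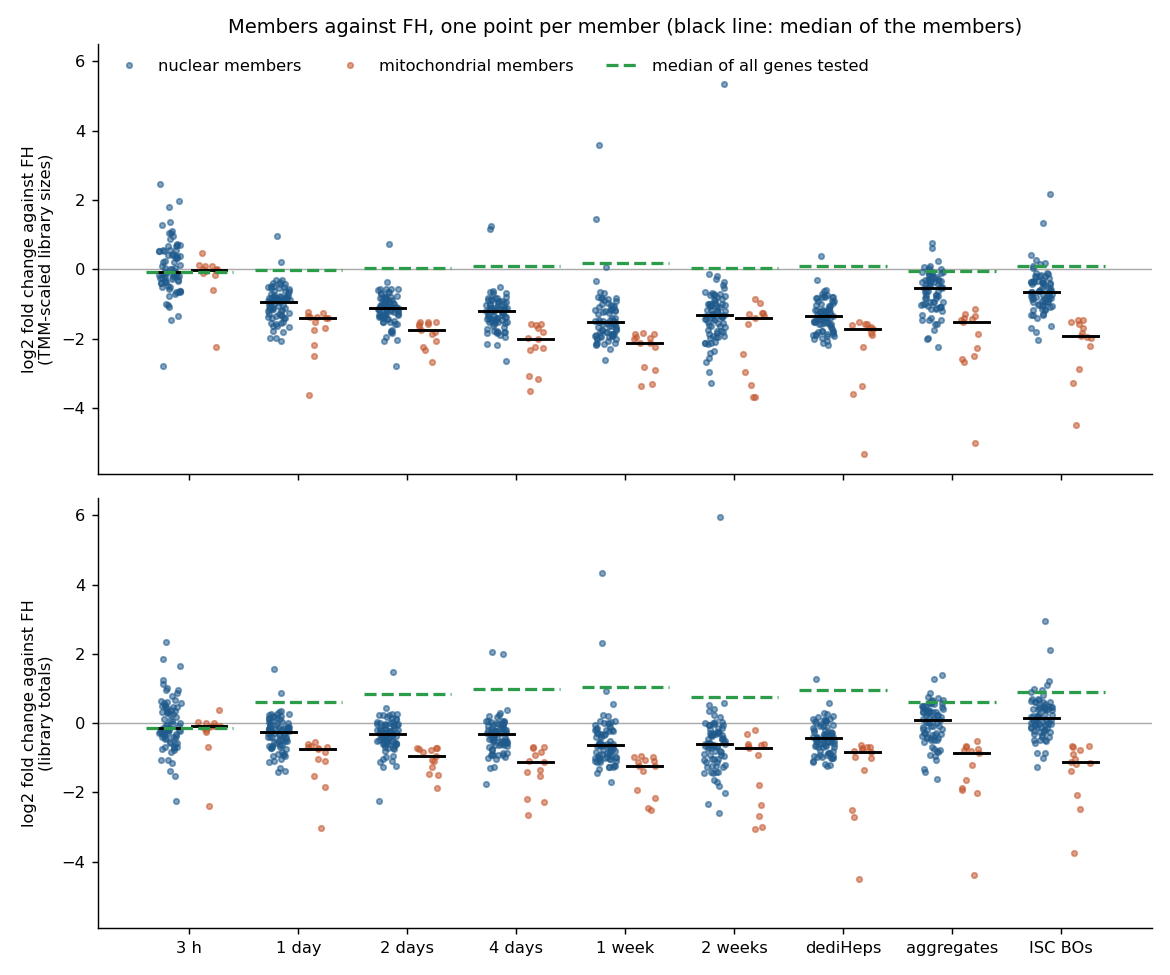
Log2 fold change against FH of each member (1 point per member, nuclear and mitochondrial apart) at 6 times and in dediHeps, aggregates and ISC-derived BOs, with TMM (top) and on library totals (bottom); black lines are member medians and green dashes the median of all genes. With TMM the nuclear median is -1.54 at 1 week and -1.34 in dediHeps, and on library totals it is -0.64 and -0.43 while the median of all genes is 1.05 and 0.96. In aggregates and ISC-derived BOs the nuclear median changes sign between panels, from -0.55 to 0.09 and from -0.65 to 0.16.

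Uqcrq and Ndufs3 had the smallest p at 1 week. Uqcrq, a small subunit of complex III, stood at 2176, 3975 and 2731 scaled CPM in FH and 956, 853 and 476 at 1 week, without overlap, and fell by 2.12 ± 0.28 on the log2 scale (FDR 1.72e-06, and by 1.24 on library totals, FDR 9.55e-05). Core and regulatory members fell at 1 week on the TMM scale by 1.26 for Ndufs1, 1.51 for Ndufv1, 1.68 for Sdhb, 1.56 for Uqcrc1, 1.92 for Uqcrfs1, which carries the Rieske iron-sulfur cluster, 1.14 for Cox4i1 and 1.53 for Atp5a1. The size of these falls depends on the scaling, as library totals reduced the fall of Uqcrq from 2.12 to 1.24. Atp5b fell by 0.70 (FDR 0.0507), and on library totals it was 0.19, the other sign. Uqcrh, a small subunit of complex III, fell by 1.77 (FDR 0.00112). Ndufa6 and Ndufb5, accessory subunits of complex I, had the smallest p at other times, with a fall of 2.12 for Ndufa6 at 2 weeks (FDR 1.48e-06) and of 1.8 for Ndufb5 at 4 days (FDR 1.35e-05).

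All 13 mitochondrial members fell at 1 day, 1 week and 2 weeks with TMM, and 12 at 2 and 4 days. On library totals 12, 12, 12, 13 and 11 fell at 1 day, 2 days, 4 days, 1 week and 2 weeks. Both sets of counts rest on deposited values. For members near the UMI ceiling these cannot tell lower RNA from a deeper library. Medians with TMM were -1.41 at 1 day, -2.13 at 1 week and -1.40 at 2 weeks, and -1.38 at 1 day and -2.41 at 1 week from counts corrected for UMI collisions. mt-Nd3, a small subunit of complex I that shares its sequence with Gm28438, stood at 2721, 2165 and 1740 scaled CPM in FH and 541, 640 and 457 at 1 day. All 1-day libraries lay below FH, with a fall of 2.19 ± 0.35 (log2), or 1.53 on library totals (FDR 0.00115) and 2.38 after the correction. It was 168, 149 and 246 at 2 weeks, a fall of 3.68, or 4.03 after the correction. mt-Nd4l stood at 462, 420 and 878 in FH and 246, 205 and 154 at 1 day, and fell by 1.70 ± 0.48, or 1.02 on library totals (FDR 0.074). mt-Atp8, a small subunit of ATP synthase, stood at 424, 308 and 429 in FH, 106, 76.8 and 46.5 at 1 day and 5.63, 24.3 and 69.8 at 2 weeks, where the spread between libraries was wide.

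mt-Nd1, near the ceiling, illustrates the limit. It stood at 4125, 5152 and 3983 scaled CPM in FH, 1464, 1453 and 1167 at 1 week and 1402, 2159 and 3651 at 2 weeks, replicate 3 of which was the library with the lowest total. The log2 fold change at 2 weeks was -0.98, and -1.53 after correction. mt-Nd5, a core subunit of complex I, had -1.23 at 1 day (FDR 0.00637), and did not pass after correction (-0.83, FDR 0.129) or on library totals (-0.55, FDR 0.131). mt-Nd4 had -0.87 at 2 weeks, -1.27 after correction and -0.19 on library totals (FDR 0.542). mt-Nd6, which lies alone on the other strand at chrM:13552-14070, varied between FH libraries, at 703, 93.9 and 289 scaled CPM, highest in replicate 1.

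In dediHeps 64 of 76 nuclear members tested fell against FH and 0 rose, beside 45.1% of all genes in either direction, 22.7% lower and 22.4% higher. The median was -1.34, 1.42 below that of all genes. On library totals 18 fell and 1 rose, beside 13.48% of all genes lower and 49.4% higher, and the median was 1.396 below that of all genes. By complex, 31 of 36 nuclear members of complex I fell, 2 of 4 of complex II, 8 of 9 of complex III, 8 of 11 of complex IV and 15 of 16 of complex V. The same FH libraries served the time course, dediHeps, aggregates and ISC-derived BOs, so values against FH in these comparisons are not independent. Leaving out single libraries gave 54 to 78 members passing in place of 77.

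Ndufb6, an accessory subunit of the membrane arm of complex I, had the smallest p. It stood at 1021, 1273 and 892 scaled CPM in FH and 309, 353, 282, 356 and 386 in dediHeps. No library of one group reached the other, and it fell by 1.87 ± 0.27 (FDR 0.000267), or by 0.98 on library totals (FDR 0.00755). Ndufs3 fell by 1.92 ± 0.32 (FDR 0.000638) to 55.3, 50.9, 71.9, 76.1 and 107 scaled CPM. Ndufa4 fell by 2.07 ± 0.36 (FDR 0.000873) to 168, 116, 130, 132 and 185. Each of these lay below all FH libraries too. Some core subunits did not pass, with -0.91 for Ndufv1 (FDR 0.175) and -0.74 for Cyc1 (FDR 0.187). Ndufs1, the largest subunit of complex I, fell by 0.81 (FDR 0.0714) and Atp5b by 0.64 (FDR 0.0895), but on library totals they were 0.08 and 0.26, the other sign.

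All 13 mitochondrial members fell in dediHeps on both scalings, with a median of -1.72 with TMM, -1.998 after the UMI correction and -0.82 on library totals, where the median of all genes was 0.96. Log2 fold changes with TMM ran from -1.51 for mt-Atp6 (-1.45 after the correction) to -5.35 for mt-Nd6. mt-Nd4l stood at 29.0, 72.7, 53.1, 68.4 and 57.9 scaled CPM in dediHeps, below every FH library, and fell by 3.60. mt-Atp8 stood at 27.4, 73.2, 41.3, 44.4 and 30.4 and fell by 3.38. mt-Nd3 stood at 663, 816, 695, 1004 and 849, again without overlap with FH. It was higher in every dediHep library than in any library of hepatocytes at 1 week (275, 452 and 314) or 2 weeks, a difference that was not tested.

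Aggregation of dediHeps was accompanied by higher nuclear members and by mixed mitochondrial ones. Against dediHeps 22 of 76 nuclear members rose and 0 fell, beside 12.2% of all genes higher and 12.2% lower, and their median was 0.69, 0.75 above that of all genes. With the shared culture codes as a block, 38 rose and 0 fell, beside 15.05% of all genes higher, with a median of 0.88. On library totals 6 rose and 0 fell, a share near the 8.99% of all genes that were higher, while the median stayed 0.75 above that of all genes. The count of members passing, 24 with mitochondrial ones, was 10 without dediHep replicate 2, 4 without aggregate replicate 1, 10 without aggregate replicate 2 and 4 without aggregate replicate 3. By complex 14 of 36 nuclear members of complex I rose, 0 of 4 of complex II, 2 of 9 of complex III, 2 of 11 of complex IV and 4 of 16 of complex V. Hepatocyte markers were higher in aggregates as well (8014 to 12130 CPM against 807 to 4354 CPM in dediHeps), and their part in these values was not tested.

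Atp5g1, one of the genes for subunit c of ATP synthase, stood at 36.7, 83.4, 114, 129 and 89.7 scaled CPM in dediHeps and 163, 301 and 293 in aggregates. Every aggregate library lay above every dediHep library, and it rose by 1.52 ± 0.37 (FDR 0.0241), by 1.77 with the block (FDR 0.00975) and by 1.30 on library totals (FDR 0.0411). Ndufv1 stood at 32.3, 51.9, 81.2, 104 and 108 in dediHeps and 183, 190 and 237 in aggregates. The groups did not overlap, with a rise of 1.48 ± 0.37 (FDR 0.0258), 1.89 with the block and 1.26 on library totals (FDR 0.0427). Ndufb9, an accessory subunit of complex I, went from 50.4, 126, 145, 195 and 145 to 284, 349 and 368, a rise of 1.38 ± 0.35 (FDR 0.0290). Cox7a2 rose by 1.36 (FDR 0.0692, and 0.0478 with the block) and Cox4i1 by 0.78 (FDR 0.0998, and 0.0712 with the block). Uqcrq had 0.79 (FDR 0.092), and did not pass with the block (FDR 0.173). On library totals none of these 3 passed (FDR 0.105, 0.215 and 0.169). Ndufa4, Atp5a1 and Atp5b had 0.08, 0.16 and -0.12 and did not pass.

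Of the mitochondrial members 1 rose and 1 fell in aggregates. mt-Nd4l rose by 1.05 ± 0.33 (FDR 0.0564) to 75.8, 120 and 145 scaled CPM, above every dediHep library, but on library totals its FDR was 0.101. mt-Nd3 fell by 0.91 ± 0.26 (FDR 0.0396) to 396, 530 and 322, below every dediHep library, and by 1.16 after the UMI correction. Both members belong to complex I and have a copy in the nuclear block.

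Against FH, aggregates still had 26 of 75 nuclear members lower and 0 higher with TMM, beside 19.7% of all genes lower. The median of -0.55, 0.51 below that of all genes, turned to 0.09 on library totals, where 8 fell and 2 rose beside 11.8% of all genes lower. Counts of members passing were 21 without aggregate replicate 2, 24 without aggregate replicate 3 and 51 without FH replicate 1, in place of 39. Ndufa4 stood at 164, 142 and 144 scaled CPM in aggregates, below every FH library, and fell by 1.99 ± 0.42 (FDR 0.00526), or by 1.34 on library totals (FDR 0.0268). Ndufb6 fell by 1.59 (FDR 0.00698) and Ndufs3 by 1.46 (FDR 0.00812). Ndufv1 had 0.60 (FDR 0.371). The mitochondrial members all fell with TMM, and 12 of 13 on library totals, both from deposited counts that the UMI ceiling limits.

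**Figure D5:**
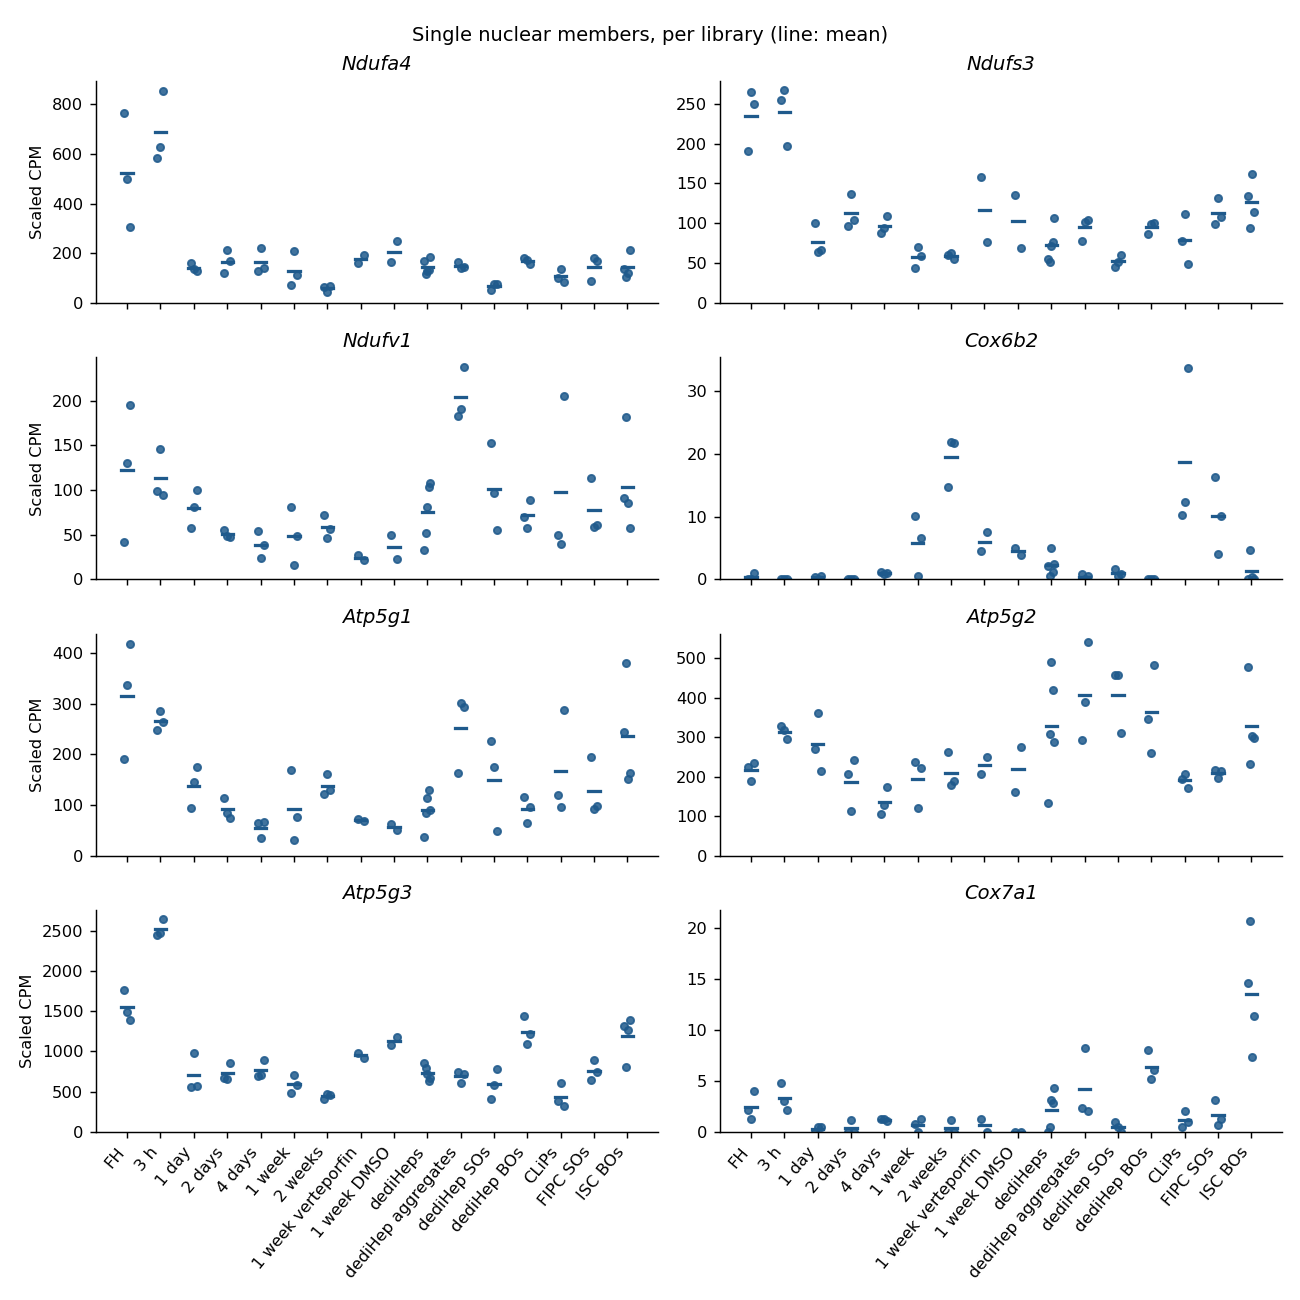
TMM-scaled CPM of Ndufa4, Ndufs3, Ndufv1, Cox6b2, Atp5g1, Atp5g2, Atp5g3 and Cox7a1 in each library of the 16 conditions, with 1 panel per gene and 1 point per library. Ndufa4 and Ndufs3 are below FH from 1 day on, Ndufv1 has its highest mean in aggregates (183 to 237), Cox6b2 is at most 0.997 in FH and reaches 33.7 in CLiPs, and Cox7a1 has its highest mean in ISC-derived BOs (7.40 to 20.7).

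Few members passed between SOs and the dediHeps they came from. Of 76 nuclear members 0 rose and 3 fell, beside 7.93% of all genes higher and 8.21% lower, and with the culture codes as a block 0 nuclear members passed, beside 8.96% of all genes. With the block 0 nuclear members had an unadjusted p under 0.05, and DESeq2 without it gave 3 lower. Deviations of SO libraries from their group correlated with those of the dediHep library of the same code at r of -0.52, 0.05 and 0.01. The blocked values therefore rest on the code alone. The 3 were Ndufa4 (-1.09, FDR 0.0395), Ndufb6 (-0.68) and Cox5a (-0.73), and mt-Nd3 had -1.26 (FDR 0.0127, and 0.132 with the block). Ndufa4 stood at 52.3, 75.8 and 76.0 scaled CPM in SOs, below all dediHep libraries, but with the block its FDR was 0.277. The count of 4 members passing was 1 without SO replicate 1 and 2 without SO replicate 2 or dediHep replicate 2, 4 or 5.

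In dediHep-derived BOs 25 of 78 nuclear members rose against dediHep-derived SOs and 2 fell, beside 19.2% of all genes higher and 21.3% lower. The median was 0.29, beside 0.00 over all genes, and library totals gave 27 and 2. The risen members included 9 of complex I, 3 of 4 of complex II, 2 of 9 of complex III, 4 of 12 of complex IV and 7 of 17 of complex V. The count of members passing, 29, was 18, 17 and 47 without SO replicates 1, 2 and 3 and 19 without BO replicate 1 or 2. Ndufb6 stood at 192, 222 and 209 scaled CPM in SOs and 635, 586 and 539 in BOs, without overlap, and rose by 1.497 ± 0.21 (FDR 0.000739). Ndufa1, an accessory subunit of complex I, rose by 1.97 ± 0.34 (FDR 0.00245) from 23.9, 48.2 and 42.5 to 190, 140 and 119. Cox7c, a small subunit of complex IV, rose by 3.03 ± 0.57 (FDR 0.00382) from 7.25, 8.03 and 31.7 to 179, 96.8 and 112.

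Ndufa4 rose by 1.32 (FDR 0.00543), Cox5a by 1.27 (FDR 0.0066), Sdhb by 1.17 (FDR 0.0136) and Atp5b by 0.73 (FDR 0.0488). Ndufv3 and Ndufb10, accessory subunits of complex I, fell by 1.19 and 0.76. mt-Co2, the subunit of complex IV that takes electrons from cytochrome c, stood at 384, 491 and 663 in SOs and 1136, 975 and 1122 in BOs, and rose by 1.06, or by 1.395 after the UMI correction. mt-Nd3 rose by 1.20, or by 1.42 after it. Intestinal markers (6 genes) summed to 1244 to 1383 CPM in SOs and 2618 to 2972 CPM in BOs. Lyz2, listed with the macrophage markers and also made by Paneth cells of the intestine, made up nearly all of the 443 to 1138 CPM of that list in BOs, with Adgre1 at 0. Stellate and fibroblast markers (6 genes) summed to 0 to 1.02 CPM in dediHep-derived SOs, 2.39 to 330.2 CPM in dediHep-derived BOs, 5.77 to 603 CPM in FIPC-derived SOs and 0 CPM in ISC-derived BOs, mostly Col1a1, Col1a2 and Col3a1. Their part in the comparisons of organoids was not tested.

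The organoids were also set against their intestinal references. dediHep-derived SOs had 2 of 77 nuclear members higher and 13 lower than FIPC-derived SOs, beside 13.1% of all genes higher and 10.3% lower, with a median of -0.31 beside -0.03 over all genes. The share of members that were lower, here and on library totals, was above that of all genes. On library totals 1 was higher and 19 lower, beside 13.3% of all genes lower. The count of 16 members passing was 7 and 5 without SO replicates 1 and 2, 30 without SO replicate 3 and 5 or 6 without FIPC-derived SO replicate 2 or 3. Uqcrb, a subunit of complex III that helps to hold ubiquinone, stood at 20.2, 26.1 and 27.6 scaled CPM in dediHep-derived SOs and 63.0, 67.6 and 54.3 in FIPC-derived SOs. The groups did not overlap, and the difference was -1.34 ± 0.29 (FDR 0.0133). Ndufb6 was also lower, at -1.12 ± 0.25 (FDR 0.0143), at 192 to 222 against 355, 557 and 435.

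dediHep-derived BOs had 1 of 78 nuclear members higher and 6 lower than ISC-derived BOs, beside 10.2% of all genes in either direction, 5.26% higher and 4.94% lower, and no mitochondrial member passed in edgeR's test, where 3 had an unadjusted p under 0.05, or in DESeq2. The 1 higher member was Ndufa1 (1.43), and Ndufs7, a core subunit of complex I, Atp5g1 and Atp5d, the delta subunit of ATP synthase, were lower at -1.34, -1.31 and -0.997. The count of 7 was 12 with DESeq2, 14 without the count filter and 4 with all 49 libraries in a single fit. It was 1, 0 and 4 without BO replicates 1, 2 and 3, 0 without ISC-derived BO replicate 1 and 11 without its replicate 4. The difference of BOs from SOs was itself unlike between dediHep-derived and intestinal organoids in 6 of 79 nuclear members, by an interaction term. It was more positive in dediHep-derived organoids in 5 and more negative in 1, beside 9.24% and 9.09% of all genes (18.3% together).

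ISC-derived BOs against FH compared cultured organoids of adult intestine with uncultured adult hepatocytes, so tissue and culture cannot be told apart. With TMM 31 of 78 nuclear members were lower and 1 higher, beside 25.6% of all genes lower and 28.5% higher. On library totals 13 were higher and 4 lower, beside 49.99% and 15.8% of all genes, and the median changed from -0.65 to 0.16. Relative to all genes it was -0.74 and -0.72. Without FH replicate 1, 48 nuclear members passed. Ndufa4 stood at 139, 106, 120 and 213 scaled CPM, below every FH library, and had -2.05 ± 0.38 (FDR 0.000883), or -1.26 on library totals (FDR 0.0153). All 13 mitochondrial members were lower on both scalings, with medians of -1.92 and -1.11 from deposited counts, not corrected for UMI collisions.

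Isoforms of one subunit did not always move together. Subunit c of ATP synthase is encoded by Atp5g1, Atp5g2 and Atp5g3, whose mature products are the same. At 1 week Atp5g1 fell by 1.97 and Atp5g3 by 1.54, and Atp5g2 had -0.33 (FDR 0.424). In dediHeps Atp5g1 fell by 2.02 (FDR 0.00194) and Atp5g3 by 1.29 (FDR 0.00364). Atp5g2 had 0.37 (FDR 0.487), and on library totals it was higher by 1.27 (FDR 0.0237). Its scaled CPM was 225, 188 and 235 in FH and 134, 309, 490, 420 and 288 in dediHeps, where replicate 1 alone lay below FH. In dediHep-derived SOs Atp5g2 stood at 457, 457 and 310, above the 217, 196 and 214 of FIPC-derived SOs, a difference of 0.95 ± 0.25 (FDR 0.0294). Atp5g3 was 1760, 1494 and 1388 in FH, 2449, 2468 and 2639 at 3 h and 411, 473 and 465 at 2 weeks. It stood at 411, 586 and 780 in dediHep-derived SOs and 1434, 1086 and 1220 in dediHep-derived BOs, a rise of 1.07 (FDR 0.0144).

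Cox6b2, the testis form of a complex IV subunit at chr7:4751792-4753094 on the minus strand, was the only nuclear member higher at 1 and 2 weeks with TMM. It was at 0, 0 and 0.997 scaled CPM in FH and at 0 at 3 h, then 10.1, 0.478 and 6.60 at 1 week and 14.6, 21.8 and 21.8 at 2 weeks. The log2 fold changes were 3.59 ± 1.17 (FDR 0.0188) and 5.36 ± 1.08 (FDR 0.000474). With 1 count in the 3 FH libraries together these depend on the prior count. The ratio of summed counts on scaled totals was 16.5 at 1 week and 48.7 at 2 weeks, with exact 95% counting intervals of 2.83 to 667 and 8.54 to 1946. CLiPs held 10.3, 12.3 and 33.7 and dediHeps 2.19, 0.509, 4.94, 1.22 and 2.41, and Cox6b2 was the only member that passed between them (2.93, FDR 0.0479, and FDR 0.129 with the replicate number as a block). Of all genes 4.69% passed in that comparison, 2.84% higher and 1.85% lower. FIPC-derived SOs held 16.2, 3.98 and 10.0 and dediHep-derived SOs 1.58, 0.502 and 0.905, a difference of -3.21 ± 0.69 (FDR 0.0118). In dediHep-derived BOs it was at 0 in every library.

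Cox7a1, the form of a complex IV subunit known from heart and skeletal muscle, stood at 2.18, 1.30 and 3.99 scaled CPM in FH and 14.6, 20.7, 7.40 and 11.4 in ISC-derived BOs, higher by 2.18 ± 0.58 (FDR 0.00851). In dediHep-derived BOs it stood at 8.01, 5.19 and 6.04, above 0.945, 0.502 and 0 in SOs, with a rise of 3.45 ± 0.67 (FDR 0.0047) that rested on 42 counts against 4. Cox6a2, another muscle form, was at 0, 0.869 and 35.4 in aggregates and at most 2.54 elsewhere, so its level rested on 1 library. Muscle markers (4 genes) ran from 0 to 0.826 CPM in FH and from 462 to 828.9 CPM at 2 weeks, almost all Tnnt2, with Ckm at 0.

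Few members passed between verteporfin and DMSO. Of 76 nuclear members 0 passed in edgeR's test with 2 libraries a group, beside 0.375% of all genes in either direction, 0.317% higher and 0.0577% lower. At an unadjusted p under 0.05 there were 4 nuclear members, 3 of them higher, and DESeq2 gave 0. Of the 13 mitochondrial members 12 lay above 0 and 4 had an unadjusted p under 0.05, and 1, mt-Nd4l, passed. It stood at 382 and 265 scaled CPM with verteporfin and 68.2 and 52.9 with DMSO, a difference of 2.42 (FDR 0.0129). With all 49 libraries in a single fit 0 members passed, with 1 mitochondrial member at an unadjusted p under 0.05. With a block on the replicate number, which the column labels share, 9 members passed in place of 1. The count of 1 was 2 or 4 without verteporfin replicate 1 or 2 and 4 without DMSO replicate 1.

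Ndufa4l2 is a relative of Ndufa4 known as a target of hypoxia signalling and is not itself a member. Like Ndufa4, it lay below every FH library at 1 day, and the relation between them was not tested. Its scaled CPM was 5.22, 8.98 and 250 in FH, 93.3 to 181 at 3 h and 1.52 to 2.54 at 1 day. A single FH library set its FH mean.

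Genes that work with the complexes moved in part with the members. Lists of carriers and other subunits, assembly factors, mitochondrial DNA expression, the mitochondrial ribosome, regulators and the tricarboxylic acid cycle were counted by the same test. In dediHeps against FH, where 22.7% of all genes were lower and 22.4% higher, 16 of 42 assembly factors fell and 0 rose with TMM, 22 of 75 genes of the mitochondrial ribosome fell and 0 rose, and 8 of 13 of the tricarboxylic acid cycle fell and 0 rose. On library totals, where 13.48% of all genes were lower and 49.4% higher, 4 assembly factors fell and 4 rose, 2 ribosomal genes fell and 13 rose, and 2 cycle genes fell and 3 rose, so the counts of these lists rested on the scaling. Their medians with TMM were -0.70, -0.63 and -1.06, against -1.34 for the nuclear members. For mitochondrial DNA expression 4 of 14 fell and 0 rose with TMM, and 0 fell and 3 rose on library totals. At 1 day 9 of 77 genes of the mitochondrial ribosome were higher and 8 lower, beside 17.7% and 22.2% of all genes, with a median of 0.00 against -0.94 for the nuclear members. This contrast was not tested. The genes with the smallest p among those lower in dediHeps with TMM included Ndufaf6 (-2.20, FDR 0.00112) and Ndufaf4 (-2.37, FDR 0.00129), assembly factors of complex I. Others were Mrpl30 of the mitochondrial ribosome (-2.07), Sucla2 and Suclg1 of succinyl-CoA ligase (-2.07 and -1.83), Lrpprc, which binds mitochondrial mRNA (-1.66), Polg2, a subunit of the mitochondrial DNA polymerase (-2.05), and Usmg5, a small subunit of ATP synthase (-1.36). On library totals the last 3 did not pass (FDR 0.151, 0.113 and 0.331).

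Slc25a4, an ADP/ATP carrier of the inner membrane known from heart and muscle, went the other way. It stood at 2.61, 3.26 and 4.99 scaled CPM in FH, 14.7 to 28.3 at 1 day, 332, 359 and 433 at 2 weeks and 171 to 330 in dediHeps. Every library of these later groups lay above FH, and it rose by 2.37 at 1 day and by 5.97 ± 0.48 in dediHeps (FDR 4.43e-06), or 6.84 on library totals. Aggregates held 98.2, 115 and 189, a fall of 0.97 (FDR 0.0673). Atpif1, an inhibitor of the ATP synthase, rose in dediHeps by 2.34 ± 0.46 (FDR 0.00201), from 10.9, 28.7 and 37.9 to between 96.6 and 190. Cycs, cytochrome c, stood at 1244, 1256 and 1272 in FH and 436 to 823 in dediHeps and fell by 1.14 ± 0.28 (FDR 0.00783), but on library totals it had -0.25 (FDR 0.436).

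Among regulators, Ppargc1a and Ppargc1b, coactivators of genes for mitochondrial proteins, fell in the time course. Ppargc1a stood at 18.9, 34.8 and 154 scaled CPM in FH, 0.505, 1.53 and 3.01 at 1 day and 0.607, 1.13 and 2.29 at 2 weeks, a fall of 5.93 ± 0.85 (FDR 5.78e-06). In dediHeps it stood at 26.2 to 45.3, and had -1.22 (FDR 0.113). Ppargc1b was 33.9, 34.8 and 42.9 in FH, 1.07 to 4.79 at 3 h and 1.53 to 7.72 in dediHeps, where it fell by 3.00 ± 0.47 (FDR 0.000457), or 2.11 on library totals. Pprc1 and Esrra, also of this list, rose in dediHeps by 1.48 and 1.42. Tfam, which packs and transcribes mitochondrial DNA, had -0.54 in dediHeps (FDR 0.318) and fell by 1.54 at 2 weeks (FDR 0.00525), where library totals gave -0.84 (FDR 0.121).

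In aggregates against dediHeps, where 12.2% of all genes were higher and 12.2% lower, 11 of 44 assembly factors rose and 1 fell, and 16 of 74 genes of the mitochondrial ribosome rose and 0 fell. On library totals, where 8.99% of all genes were higher, 6 assembly factors rose and 1 fell, and 11 ribosomal genes rose and 0 fell. The assembly factors with the smallest p were Uqcc3 (1.11, FDR 0.0269) and Cox19 (1.35, FDR 0.0269), named for complexes III and IV, and the 1 that fell was Cmc1 (-1.54, FDR 0.0954). Polrmt, the mitochondrial RNA polymerase, and Polg2 had 1.34 (FDR 0.0773) and 1.48 (FDR 0.0795), and neither passed on library totals (FDR 0.112 and 0.113). Suclg1 had 0.92 (FDR 0.054, and 0.103 on library totals) and Nrip1, a corepressor, -1.03 (FDR 0.0915). Mrpl47 stood at 23.5 to 34.7 scaled CPM in dediHeps and 63.4, 89.7 and 92.8 in aggregates, a rise of 1.49 (FDR 0.00653). Mrps18b rose by 1.94 (FDR 0.00765) from between 10.9 and 32.6 to 56.5, 69.1 and 108. Cs, citrate synthase, fell by 1.53 (FDR 0.0283) and Idh3b, a subunit of isocitrate dehydrogenase, rose by 1.10 (FDR 0.0314).

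Promoters of the members were searched for 3 motifs known from genes of mitochondrial proteins. RefSeq (GRCm38.p6) gave 66 of the 84 nuclear members a promoter of 250 bases before to 50 bases after the start. The NRF1 letters GCGCATGCG stood on either strand in 8 of them (12.1%), beside 1.95% of 27025 promoters of all genes. The ETS letters CCGGAAG stood in 16 (24.2% beside 9.93%) and the YY1 letters AAGATGGC in 9 (13.6% beside 3.19%). Any of the 3 stood in 28 (42.4% beside 14.1%). Windows are shown for members described above that fell, rose early or did not pass, with the motif in capitals, each read along the strand of its gene.
Ndufs3, chr2:90904730-90904759, minus strand, ETS: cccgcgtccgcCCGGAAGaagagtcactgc
Ndufa8, chr2:36049328-36049357, minus strand, NRF1 in reverse complement: tcgctggagaCGCATGCGCagatggtaccg
Uqcrc1, chr9:108936668-108936697, plus strand, NRF1: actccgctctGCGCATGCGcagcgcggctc
Sdhb, chr4:140961266-140961295, plus strand, ETS: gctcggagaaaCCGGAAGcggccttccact
Atp5g2, chr15:102671070-102671099, minus strand, NRF1: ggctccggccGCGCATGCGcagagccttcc
A motif was held by members that fell at 1 day (Ndufs3) and by members that did not pass then (Uqcrc1, Atp5g2). The letters in a window describe the sequence only.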

How the data were processed

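RNA of the 49 libraries was sequenced at its 3′ ends by CEL-Seq2. The authors deposited UMI counts per Ensembl gene, whole numbers without normalization, replicates not pooled. The submitters' processing notes name bcl2fastq 2.20, Bowtie2 2.3.1, HTSeq 0.6.0 and GRCm38, and the annotation release is not given in the sources used here. Symbols came from GENCODE M21 (GRCm38), which named 45143 of the 46078 identifiers, and 0 columns were left out. A 3′ count is one per molecule, so no length scaling was applied, but a UMI set of limited size caps the count of abundant genes.

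Each comparison was fitted with edgeR 4.0.16 (R 4.3.3) on the UMI counts of all genes, with glmQLFit and glmQLFTest, TMM, filterByExpr (minimum count 10, total 15) and Benjamini-Hochberg adjustment over all genes tested. The time course and FH formed a single fit of 7 groups and other comparisons used the libraries compared. Members passed at an FDR under 0.1. SEs were derived from the fold change and its F value. Levels are CPM of the library total, or scaled CPM on TMM-scaled totals over all 49 libraries. Named members were every mitochondrial member, core and other subunits of each complex from a fixed list, sets of isoforms, and the 3 nuclear members with the smallest p in each direction of each comparison. Values of 1 subunit are not reported here. From lists of related genes the 2 smallest p in each direction were named. Members and lists were chosen with earlier results of these data known. Alternatives were library totals without TMM, RLE factors, DESeq2 1.42.0, no count filter, correction for UMI collisions, removal of mitochondrial rows, all 49 libraries in a single fit, a replicate block and leaving out each library. The edgeR fit was tested on simulated counts. Aggregates and SOs carry culture codes of dediHep libraries. Deviations of aggregates from their group correlated with those of the dediHep library of the same code at r of 0.19, 0.24 and 0.36 over 10007 genes, so blocked values stand beside that comparison. For SOs the same values were -0.52, 0.05 and 0.01, so the block has less ground there. Floors and intervals cover counting error only.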

Additional observations from a re-analysis of the deposited data

Results flagged for a closer look

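Dixon's criterion was applied to 60 values in the groups of 4 and 5 libraries, and 3 had a library farther from its group than the criterion allows, where chance alone gives about 1 in 20. Cox6c stood at 323 scaled CPM in dediHep replicate 1 and at 543 to 586 in the other dediHep libraries. That library was low in the nuclear members as a set, with a scaled sum of 10118 against 15239 to 18818 in the other dediHep libraries. mt-Nd1 stood at 2103 in ISC-derived BO replicate 1 and at 1680 to 1730 in the others. Its counts were 91.3%, 97.0%, 97.1% and 92.6% of the UMI ceiling in replicates 1 to 4, and replicate 1 had the smallest total of the group (1757504), so this value moves with the library total and says nothing of the level of mt-Nd1. mt-Nd2 stood at 1132 in ISC-derived BO replicate 3 and at 1332 to 1358 in the others.

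The difference of BOs from SOs was compared between dediHep-derived and intestinal organoids by an interaction term of the edgeR fit. In it 6 of 79 nuclear members passed, beside 18.3% of all genes. Log2 values are the dediHep-derived difference minus the intestinal one. They were 1.32 ± 0.36 for Uqcrb (FDR 0.0328), 3.21 ± 0.95 for Cox7c (FDR 0.0451), -1.39 ± 0.41 for Ndufb9 (FDR 0.0457), 0.97 ± 0.30 for Ndufb6 (FDR 0.0533), 1.37 ± 0.43 for Ndufa4 (FDR 0.0559) and 0.81 ± 0.25 for Atp5mpl (FDR 0.0576). The intestinal SOs were fetal and the intestinal BOs adult, so stage and organoid type cannot be told apart there. Among dediHep-derived organoids only the BOs had forced Cdx2, and the paper also changed the medium to obtain BOs. Cdx2, medium and organoid type cannot be told apart there either. The count of 6 was 0 without dediHep-derived SO replicate 1, 28 without SO replicate 3, 3 without dediHep-derived BO replicate 2, 21 without FIPC-derived SO replicate 1, 1 without its replicate 2 or 3 and 10 without ISC-derived BO replicate 4.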

How the results depend on the processing

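On library totals without TMM, 29 members passed at 1 day in place of 62, 22 at 2 days in place of 73, 28 at 4 days in place of 80, 46 at 2 weeks in place of 79, 32 in dediHeps against FH in place of 77, 8 in aggregates against dediHeps in place of 24 and 22 in aggregates against FH in place of 39. On that scaling the median of all genes lies 0.61 to 1.05 (log2) above FH. The same scaling turned single members from lower to slightly higher log2 fold changes against FH, to 0.0706 for Atp5g2 at 4 days, 0.0455 for Cox6a1, 0.0478 for Cox6b1 and 0.19 for Atp5b at 1 week, 0.0327 for Cox6b1 at 2 weeks, 0.0760 for Ndufs1, 0.0573 for Cox8a and 0.26 for Atp5b in dediHeps and 0.0247 for Cox7b in ISC-derived BOs.

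With a replicate block 40 members passed in aggregates against dediHeps in place of 24, 0 in SOs against dediHeps in place of 4, 0 in CLiPs in place of 1 and 9 with verteporfin in place of 1. The first 2 of these blocks use shared culture codes, and the others only a shared number. With 2 libraries a group, deviations with verteporfin correlated with those of the DMSO library of that number at r of 0.42. All 49 libraries in a single fit gave 43 in aggregates against dediHeps, 11 in SOs against dediHeps in place of 4, 4 in dediHep-derived against ISC-derived BOs in place of 7, 8 in CLiPs in place of 1, 0 with verteporfin in place of 1 and 2 for the interaction in place of 6. Without a count filter 14 passed between BOs in place of 7, 3 with verteporfin in place of 1 and 10 for the interaction in place of 6. DESeq2 gave 12 between BOs in place of 7. With the mitochondrial rows left out 0 passed with verteporfin, because mt-Nd4l, the only member that passed, was among those rows. The causes of the other shifts were not tested.

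Leaving out single libraries gave 2 to 24 members at 3 h in place of 10, 4 to 33 in aggregates against dediHeps, 21 to 51 in aggregates against FH, 1 to 6 in SOs against dediHeps, 17 to 47 in BOs against SOs in place of 29, 5 to 30 in dediHep-derived against FIPC-derived SOs in place of 16, 0 to 11 between BOs, 0 to 2 in CLiPs against dediHeps, 1 to 4 with verteporfin and 0 to 28 for the interaction. CLiPs against dediHeps lost their only call without dediHep replicate 2 or CLiP replicate 1 or 3.

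The UMI ceiling limits the mitochondrial members and the most abundant nuclear ones, and the 3 FH libraries, of which replicate 1 stands apart, limit every comparison with FH.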

Other observations

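In dediHep-derived BOs against dediHep-derived SOs, genes of the tricarboxylic acid cycle rose with the members. Of 13 tested 8 rose and 0 fell, beside 19.2% of all genes higher, on TMM and on library totals alike, with medians of 0.97 and 1.00. The 2 with the smallest p, chosen after their values were seen, were Suclg2, a subunit of a succinyl-CoA ligase, at 1.66 ± 0.37 (FDR 0.0101, edgeR quasi-likelihood test) and Fh1, fumarase, at 1.94 ± 0.52 (FDR 0.0219). Ppargc1b rose by 1.85 ± 0.48 (FDR 0.0186) from 3.15, 9.03 and 13.6 scaled CPM in SOs to 25.9, 31.1 and 34.5 in BOs, without overlap, and Tfam by 1.40 ± 0.41 (FDR 0.0296). Genes of the mitochondrial ribosome did not share this direction, with 7 of 75 higher and 10 lower and a median of -0.12.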
